A study of Mus musculus with 15 samples.

Results

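Whole-ovary RNA was compared between 7 HSD17B1-KI mice and 8 WT mice for 9 genes that act in ovulation and in the expansion of the cumulus, the coat of cells around the oocyte. The 9 genes, Areg, Ereg, Btc, Ptgs2, Has2, Tnfaip6, Ptx3, Adamts1 and Edn2, were taken by their symbols from a table of 27907 genes, and all 9 passed the filter on low values, which left 21525 genes. HSD17B1-KI mice carried the Ser143Ala replacement at the active site of hydroxysteroid (17beta) dehydrogenase 1 on both alleles in every cell, introduced with CRISPR/Cas9 into the germline, and WT mice carried none. All females were 6 months old and, as the study states, in estrus, and each mouse gave 1 library. The mutation changes codons and not the amount of message, so that counts per gene could not check the genotype.

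Before ovulation, luteinizing hormone (LH) from the pituitary acts on granulosa cells of the large follicle, which release EGF-like ligands that pass the signal on to cumulus cells. Cumulus cells then make prostaglandins and a hyaluronan matrix, while proteases and a contraction of the follicle wall accompany the release of the oocyte. The early genes of this response are known to be raised for hours only, other genes are raised later through the progesterone receptor, and genes of estrogen and androgen synthesis fall. The cycle stage is the one the study states, and the time since the LH surge was not measured in these mice.

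The libraries held 26544745 to 72362981 reads. Markers of granulosa, theca, luteal cells and oocytes were detected in every library, the rarest at a mean of 45.9 normalized counts (read counts divided by the size factor of the library). Of these lists and those of oviduct and stroma, only 1 of 5 theca markers passed the test between genotypes. Summed levels of 6 oviduct markers ranged from 1262 to 25543 normalized counts in HSD17B1-KI and from 757 to 225919 in WT, with WT 1 and WT 8 far above the other libraries. In whole ovaries, fewer cells of a type and less RNA per cell cannot be told apart.

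None of the 9 genes passed the test between the genotypes. With limma-trend on log2(normalized count + 1), 0 of 9 had a Benjamini-Hochberg adjusted p under 0.05, where 46 of 21525 genes, 0.214%, passed. DESeq2 called 0 of 9, against 2.30% of the genes to which it gave an adjusted p, and edgeR called 0 of 9, against 0.232%. Without adjustment, 1 of 9, Ptgs2, had a limma p under 0.05 and was lower in HSD17B1-KI, as were 4.64% of all genes. The mean was lower in HSD17B1-KI for 8 of 9 genes, and the log2 fold change was below 0 for 8 of 9, against 55.2% of all genes. The median log2 fold change was -0.49 over the 9 genes and -0.02 over all genes tested. Groups overlapped for each of the 9 genes, while they did not overlap for 0.325% of all genes.

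**Figure D1:**
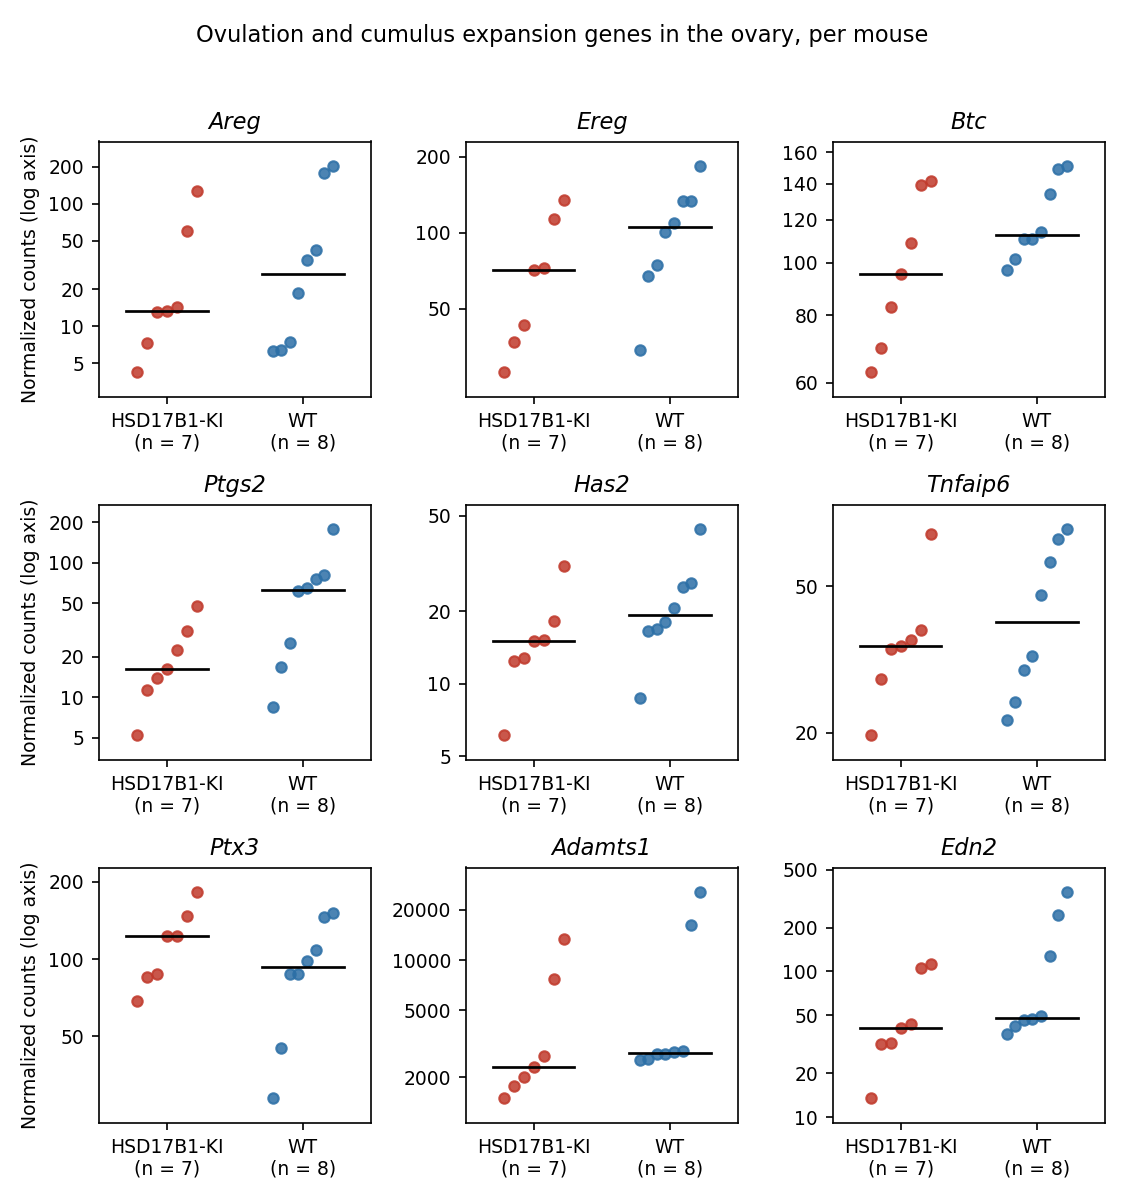
Normalized counts of the 9 genes on log axes, with 1 point per mouse, HSD17B1-KI (n = 7) in red and WT (n = 8) in blue, and a black line at the median. The groups overlap in every panel, and Adamts1 and Edn2 have a few ovaries far above the rest in both genotypes.

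**Figure D2:**
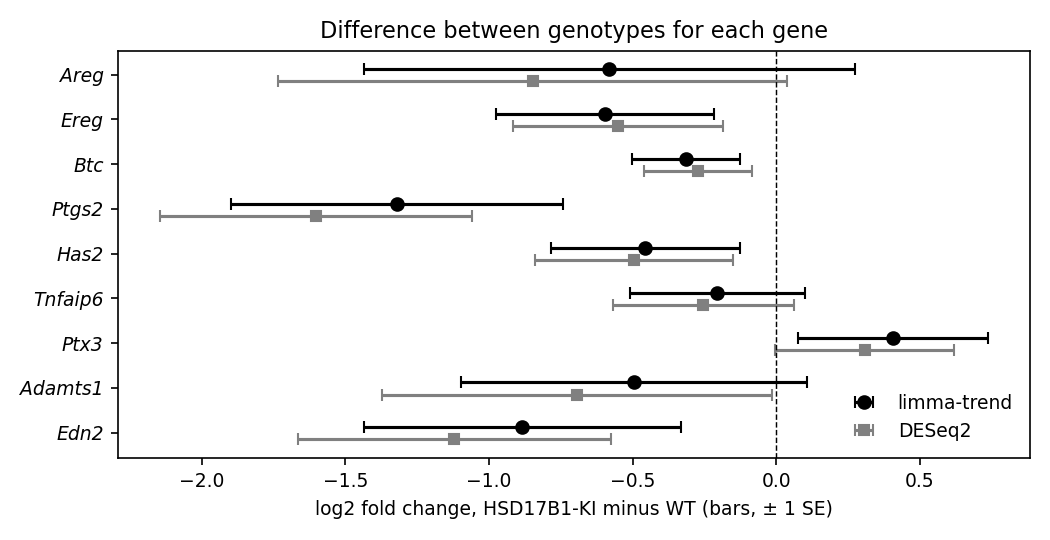
log2 fold change (HSD17B1-KI minus WT) of each gene with bars of 1 SE, from limma-trend (black circles) and DESeq2 (gray squares). Values lie left of 0 for 8 of 9 genes, and none passed an adjusted p of 0.05 in either fit.

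Levels of the 9 genes differed widely. Per kilobase of merged exons, the mean of 15 mice was 1123 normalized counts for Adamts1. It was 60.4 for Edn2, 40.3 for Areg, 39.0 for Ptx3, 24.6 for Btc, 23.8 for Tnfaip6 and 21.6 for Ereg, and the lowest were Ptgs2 with 9.60 and Has2 with 4.52. Except for Ereg and Ptgs2, neighbours in this order, Adamts1 and Edn2 included, differed by less than the larger of their SDs over the 15 mice. The lowest library held 5 reads of Areg (exact Poisson 95% interval 1.62 to 11.7) and 5 reads of Has2, so that the low end of these genes was imprecise, and the interval covers counting error only. For Adamts1, the lowest library held 1287 reads.

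Promoters of 4 genes are shown because their levels varied most between ovaries, by 17.0-fold for Adamts1, 26.0-fold for Edn2, 34.1-fold for Ptgs2 and 48.1-fold for Areg between the lowest and the highest mouse. RefSeq sequences of GRCm38.p6 were matched for 7 of 9 genes, with Ereg and Has2 not matched. Each line gives the 250 bases before the transcription start, 5′ to 3′ on the strand of the gene, and capitals mark matches on either strand to the motifs described next.
Areg promoter, GRCm38.p6 chr5:91139349-91139598, + strand: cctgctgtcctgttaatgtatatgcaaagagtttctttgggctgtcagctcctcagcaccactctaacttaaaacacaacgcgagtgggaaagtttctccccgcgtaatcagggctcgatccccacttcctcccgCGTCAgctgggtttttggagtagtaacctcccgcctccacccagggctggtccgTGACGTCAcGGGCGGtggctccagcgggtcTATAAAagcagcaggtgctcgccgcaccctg
Adamts1 promoter, GRCm38.p6 chr16:85803114-85803363, - strand: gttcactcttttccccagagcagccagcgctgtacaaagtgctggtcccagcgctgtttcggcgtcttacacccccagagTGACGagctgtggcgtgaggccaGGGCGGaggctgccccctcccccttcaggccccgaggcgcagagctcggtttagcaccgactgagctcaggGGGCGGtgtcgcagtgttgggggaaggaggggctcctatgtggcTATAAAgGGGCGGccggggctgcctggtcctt
Edn2 promoter, GRCm38.p6 chr4:120160956-120161205, + strand: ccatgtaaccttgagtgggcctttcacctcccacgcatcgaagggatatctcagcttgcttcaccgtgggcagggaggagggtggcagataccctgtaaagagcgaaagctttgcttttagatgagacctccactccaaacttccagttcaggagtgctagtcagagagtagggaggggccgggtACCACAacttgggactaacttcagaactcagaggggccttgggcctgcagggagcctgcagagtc
Ptgs2 promoter, GRCm38.p6 chr1:150099781-150100030, + strand: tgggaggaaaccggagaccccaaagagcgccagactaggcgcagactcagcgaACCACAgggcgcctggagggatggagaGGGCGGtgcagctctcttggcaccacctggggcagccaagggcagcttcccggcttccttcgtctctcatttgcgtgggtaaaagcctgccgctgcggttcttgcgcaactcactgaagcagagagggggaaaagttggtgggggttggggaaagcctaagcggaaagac

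The window of Areg held the full cyclic AMP response element TGACGTCA, which is known to bind CREB, at position -61 from the start, a position counted from -1 at the base before the start. This motif was in 1.55% of 32851 RefSeq promoter windows of the same length. Its core TGACG was in 17.8% of the windows and was found 3 times in that of Areg, at -115, -61 and -58, with the last 2 matches inside the full element on opposite strands. Adamts1 held 1 such core at -170, and Btc held 1 at -113. The RUNX core TGTGGT, in 4614 of the windows, was found at -65 in Edn2 and at -197 in Ptgs2. The GC box GGGCGG, in 32.7%, was found 3 times in Adamts1 and 1 time each in Areg, Ptgs2 and Tnfaip6. The TATA box TATAAA, in 12.4%, was found in Adamts1 at -32 and in Areg at -31. The E-box CACGTG (6.02%) and the hypoxia response core ACGTG (16.6%), which the E-box contains, were in none of the 7 windows, and Ptx3 matched none of the 7 motifs. For Tnfaip6 and Ptx3 the RefSeq start did not match the start of any transcript in the GENCODE annotation. The window of Tnfaip6 ended at chr2:52038112, inside the gene, which starts at 52038009 there. These matches describe letters only.

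Areg, Ereg and Btc encode amphiregulin, epiregulin and betacellulin, the ligands that carry the LH signal from granulosa to cumulus cells through the EGF receptor. They lie together on mouse chromosome 5, within chr5:91027464-91402994 of GRCm38 (375531 bases), which holds 4 protein-coding genes with Epgn, the gene of epigen. Areg spans chr5:91139599-91148432 on the + strand with 6 merged exons, Ereg spans chr5:91074622-91093646 on the + strand with 5, and Btc spans chr5:91357261-91402994 on the - strand with 6. An exon of the antisense gene Gm19610 overlaps Ereg, and the strand setting of the counting was not stated.

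Areg was the most variable of the 9 genes. Its normalized counts in HSD17B1-KI mice were 4.20 at the lowest, 13.4 at the median and 128 at the highest, and in WT mice they were 6.29, 26.8 and 202. High values occurred in both groups, in WT 1 with 202, WT 8 with 177 and HSD17B1-KI 1 with 128, while the next ovary, HSD17B1-KI 3, had 59.9. Means were 34.3 ± 45.3 (SD, 7 HSD17B1-KI mice) and 61.8 ± 80.1 (SD, 8 WT mice), and the log2 fold change was -0.58 ± 0.85 (SE) with a limma adjusted p of 0.868. It was -1.04 without HSD17B1-KI 1 and -0.18 without WT 1. Without WT 1 and WT 8 together it was 0.32 ± 0.72, with the opposite sign.

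Areg moved with the oviduct markers over the mice. In a model with genotype and an oviduct marker score (the mean of the centred log2 levels of 6 markers), the log2 level of Areg rose by 0.63 ± 0.10 (SE) per unit of score (limma adjusted p = 0.000388), where 9.31% of all genes had an adjusted p under 0.05 for the score. With the score in the model, the genotype difference of Areg was -0.03 ± 0.47 on the log2 scale. Ovgp1, the gene of the main oviduct glycoprotein, was at 203321 normalized counts in WT 1, 127890 in WT 8 and 14963 in HSD17B1-KI 1. The ovary of WT 4 combined 14952 normalized counts of Ovgp1 with 6.41 of Areg. The oviduct markers Foxj1, Dynlrb2 and Tppp3 were highest in WT 1, WT 8, HSD17B1-KI 1 and HSD17B1-KI 3, the ovaries also highest for Areg. For the markers Pax8 and Muc16, as for Ovgp1, WT 4 was among the highest ovaries. Across 18047 genes with a mean of at least 10, the genes whose genotype-centred log2 values were most like Areg were Ribc2, a gene of ciliary microtubules (Pearson r = 0.98 over 15 mice), and Gm15587 (r = 0.98). Whether oviduct tissue gave the Areg reads was not tested.

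**Figure D3:**
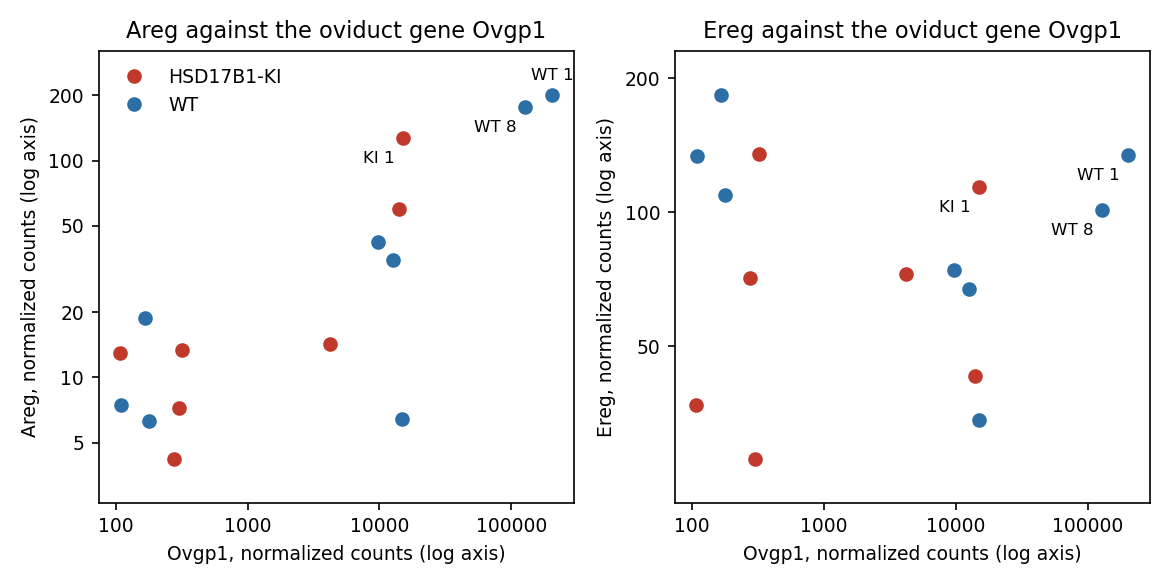
Normalized counts of Areg (left) and Ereg (right) against those of the oviduct gene Ovgp1 on log axes, with 1 point per mouse (red, HSD17B1-KI; blue, WT). WT 1, WT 8 and HSD17B1-KI 1 are the 3 highest for Areg and are labelled, and Ereg has high values at both ends of the Ovgp1 axis.

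For Ereg the value was -0.0047 ± 0.084 per unit of oviduct score (limma adjusted p = 0.980). Its normalized counts were 27.9, 71.4 and 135 (lowest, median, highest) in HSD17B1-KI and 34.2, 105 and 184 in WT. WT 3 was highest, with HSD17B1-KI 5, WT 1 and WT 6 next at 135, 134 and 134. Means were 71.6 ± 40.4 (SD, 7 HSD17B1-KI mice) and 105 ± 46.7 (SD, 8 WT mice), with 5 of 7 HSD17B1-KI mice below the WT mean and a log2 fold change of -0.59 ± 0.38 (limma adjusted p = 0.651). WT 2, 4, 7 and 8 lay below the WT mean as well.

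Btc varied least, by 2.40-fold between the lowest and the highest mouse. Its normalized counts were 62.7, 95.4 and 142 in HSD17B1-KI and 97.0, 112 and 151 in WT. The 4 lowest values belonged to HSD17B1-KI 1, 2, 4 and 7, below every WT mouse. The 4 highest were, in falling order, those of WT 3, WT 6, HSD17B1-KI 5 and HSD17B1-KI 6. The log2 fold change was -0.31 ± 0.19 (limma adjusted p = 0.615).

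Of 12 EGF ligands and receptors outside the 9 genes, 0 passed the test, and the median log2 fold change was -0.12. Adam10 and Adam17, the proteases that shed membrane-bound ligands, had the highest means of the list, and their log2 fold changes were -0.12 ± 0.10 and -0.0092 ± 0.077. The largest differences among genes with a mean of at least 10 were those of the receptors Erbb4 (-0.73 ± 0.50) and Erbb3 (-0.63 ± 0.25, limma adjusted p = 0.398). DESeq2 gave Erbb3 an adjusted p of 0.115, and of 0.446 without WT 1 and WT 8. Erbb3 was highest in WT 1 with 1821 normalized counts and WT 8 with 1370, ahead of HSD17B1-KI 3 with 666. Erbb4 was highest in WT 1 with 47.5, ahead of WT 2 with 22.6.

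Ptgs2 encodes cyclooxygenase 2, which makes the prostaglandins that ovulation needs, and it had the largest difference between the genotypes among the 9 genes. It lies at chr1:150100031-150108227 on the + strand with 11 merged exons. Its normalized counts were 5.21, 16.3 and 47.6 (lowest, median, highest) in HSD17B1-KI and 8.43, 63.1 and 177 in WT. WT 8 was highest, followed by WT 6, 4, 1 and 3, and these 5 of 8 WT mice lay above every HSD17B1-KI mouse, while WT 2, 5 and 7 lay inside the HSD17B1-KI range.

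Mean Ptgs2 was 21.2 ± 14.3 (SD) for the 7 HSD17B1-KI mice and 63.9 ± 53.7 (SD) for the 8 WT mice, 66.9% lower, with 7 of 7 HSD17B1-KI mice below the WT mean. WT 2, 3, 5 and 7 lay below the WT mean as well. The log2 fold change was -1.32 ± 0.58, and the limma adjusted p was 0.460. The exact permutation test of this gene alone, two-sided over 6435 splits of the mice and not adjusted, gave p = 0.0555 on log2 values and p = 0.0368 on means of normalized counts. DESeq2 gave -1.60 ± 0.54 with an adjusted p of 0.0901, the lowest of all alternatives, which reached 0.711. Leaving out single mice moved the log2 fold change between -1.65 and -1.04, and without WT 1 and WT 8 it was -0.91 ± 0.57. The genes most like Ptgs2 over the 15 mice were Atp1b1, a subunit of the sodium pump (r = 0.85), and Otub2, a deubiquitinase (r = 0.83).

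Of 14 other genes of prostaglandin synthesis and reception, 0 passed the limma test, while DESeq2 called 2, Ptges2 and Ptges3, where it called 2.30% of all genes. Without WT 1 and WT 8, DESeq2 called neither, with adjusted p-values of 0.119 and 0.197. Ptges3, a co-chaperone with prostaglandin E synthase activity, ranged from 4936 to 7126 normalized counts in HSD17B1-KI and from 6700 to 8246 in WT, with a log2 fold change of -0.28 ± 0.07 and adjusted p-values of 0.155 with limma and 0.0391 with DESeq2. Ptges2, a membrane-associated prostaglandin E synthase, was named because DESeq2 called it, and it had a log2 fold change of 0.29 ± 0.07 with adjusted p-values of 0.124 and 0.0169. Ptges, the inducible prostaglandin E synthase, had -0.20 ± 0.20. The largest differences in the list, among genes averaging 10 or more, were in the prostaglandin E receptors Ptger3 (-0.63 ± 0.26) and Ptger1 (-0.61 ± 0.26), with limma adjusted p-values of 0.420 and 0.443. Ptger1 was highest in WT 8 with 132 normalized counts and WT 1 with 105, ahead of WT 6 with 58.7. DESeq2 gave Ptger1 an adjusted p of 0.198, and of 0.725 without WT 1 and WT 8.

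The next 3 genes build the matrix between cumulus cells. Has2 encodes the hyaluronan synthase of the cumulus, Tnfaip6 a protein that transfers heavy chains of inter-alpha-inhibitor onto hyaluronan, and Ptx3 a pentraxin that crosslinks these chains. Has2 (chr15:56665627-56694539, - strand) is overlapped by exons of the antisense gene Has2os, and Ptx3 (chr3:66219910-66225805, + strand) by an exon of Veph1 on the opposite strand, so that reads of these pairs could be told apart only if strand was used. Tnfaip6 lies at chr2:52038009-52056686 on the + strand, with no other gene over it.

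Has2 had normalized counts of 6.10, 15.1 and 31.0 (lowest, median, highest) in HSD17B1-KI and 8.75, 19.4 and 43.9 in WT. WT 8 and HSD17B1-KI 6 were highest, and HSD17B1-KI 5 and WT 6 were lowest. The log2 fold change was -0.46 ± 0.33 (limma adjusted p = 0.697), with 6 of 7 HSD17B1-KI mice below the WT mean, and it was -0.27 without HSD17B1-KI 5. WT 1, 2, 3, 6 and 7 lay below the WT mean as well.

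Tnfaip6 had normalized counts of 19.7, 34.4 and 69.5 in HSD17B1-KI and 21.7, 39.9 and 71.5 in WT. The 3 highest ovaries were WT 3, HSD17B1-KI 5 and WT 6. With a log2 fold change of -0.20 ± 0.31 (limma adjusted p = 0.870), the groups covered nearly the same range, and the value lay between -0.37 without HSD17B1-KI 5 and -0.07 without HSD17B1-KI 2.

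Ptx3 was the only one of the 9 genes with a higher mean in HSD17B1-KI, 117 ± 39.6 (SD, 7 mice) against 94.1 ± 43.0 (SD, 8 mice) in WT. Normalized counts were 68.9, 123 and 182 in HSD17B1-KI and 28.6, 93.1 and 152 in WT. The lowest values belonged to WT 3 with 28.6 and WT 6 with 45.0. The log2 fold change of 0.41 ± 0.33 had a limma adjusted p of 0.731 and was 0.19 without WT 3.

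These 3 genes did not order the ovaries alike. WT 3 was highest of 15 for Tnfaip6 and lowest for Ptx3, while HSD17B1-KI 5 was the second for Tnfaip6 and the lowest for Has2. Of 16 other genes of the hyaluronan matrix and its proteases, 15 were tested and 0 passed, with a median log2 fold change of 0.07. Ctsl, a cathepsin, and Itih5, an inter-alpha-inhibitor heavy chain, had the highest means, and their log2 fold changes were 0.07 ± 0.17 and 0.27 ± 0.27. Among genes averaging 10 or more, the largest differences were in Itih2, another heavy chain (0.83 ± 0.42), and Adamts15, a protease of proteoglycans (-0.59 ± 0.37).

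Adamts1 encodes a protease that cleaves the proteoglycan versican and is induced in granulosa cells through the progesterone receptor. It lies at chr16:85793827-85803113 on the - strand with 10 merged exons. Its normalized counts fell into separate ranges inside both genotypes. In HSD17B1-KI mice 1, 2, 3, 6 and 7 they were 1495, 2295, 1770, 2012 and 2662, and in HSD17B1-KI 4 and 5 they were 13397 and 7736.

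In WT mice 1, 2, 4, 5, 7 and 8 Adamts1 stood between 2551 and 2866 normalized counts, and in WT 3 and 6 it stood at 16245 and 25362. These 4 ovaries, HSD17B1-KI 4 and 5 and WT 3 and 6, were thus the highest of 15, with at least 7736 against at most 2866 in the others. The log2 fold change between genotypes was -0.49 ± 0.60 (limma adjusted p = 0.837). Leaving out single mice moved it between -0.84, without HSD17B1-KI 4, and -0.14, without WT 6. Among the other mice, 4 of the HSD17B1-KI values lay below every WT mouse.

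Edn2 encodes endothelin 2, a peptide that contracts smooth muscle of the follicle wall, and it lies at chr4:120161206-120167360 on the + strand with 5 merged exons. Its normalized counts were 13.5, 40.6 and 113 (lowest, median, highest) in HSD17B1-KI and 37.3, 48.1 and 350 in WT. The 5 highest ovaries were WT 6 with 350, WT 3 with 244, WT 2 with 127, HSD17B1-KI 5 with 113 and HSD17B1-KI 4 with 105, and the next, WT 4, had 49.2. The 4 ovaries that were highest for Adamts1 were thus all among the 5 highest for Edn2.

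Edn2 averaged 54.3 ± 38.8 (SD) over 7 HSD17B1-KI mice and 118 ± 118 (SD) over 8 WT mice, with 7 of 7 HSD17B1-KI mice below the WT mean. WT 1, 4, 5, 7 and 8 lay below the WT mean as well, which WT 6 and WT 3 raised. The log2 fold change was -0.88 ± 0.55, with an adjusted p of 0.640 from limma and 0.330 from DESeq2. Under the alternatives the adjusted p lay between 0.251 and 0.824, and without WT 6 the log2 fold change was -0.58. Of 6 other genes of the endothelin system, 0 passed the test. Ece1, a converting enzyme, and Ednra, a receptor, had the highest means, with log2 fold changes of 0.0039 ± 0.11 and 0.08 ± 0.11, and the sign of Ece1 turned under several alternatives. Edn1, the gene of endothelin 1, had the largest difference with -0.67 ± 0.31, and Edn3, that of endothelin 3, had 0.40 ± 0.15 (limma adjusted p = 0.496 and 0.375). Edn1 was highest in WT 1 with 601 normalized counts and WT 8 with 410, ahead of WT 4 with 348. DESeq2 gave Edn1 an adjusted p of 0.185, and of 0.716 without WT 1 and WT 8.

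The ranks of the ovaries over the 9 genes were then set side by side. WT 3 and WT 6 were among the 3 highest ovaries for 5 of 9 genes each, HSD17B1-KI 5 and WT 8 for 3, WT 1 and WT 4 for 2, and HSD17B1-KI 2 and WT 5 for 0. Each of the other 7 ovaries was among the 3 highest for 1 gene. WT 3 lay above the median of the 15 mice for 7 of 9 genes, HSD17B1-KI 5, WT 2 and WT 6 for 6, and HSD17B1-KI 2 for 1. No ovary lay above the median for all 9 genes.

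**Figure D4:**
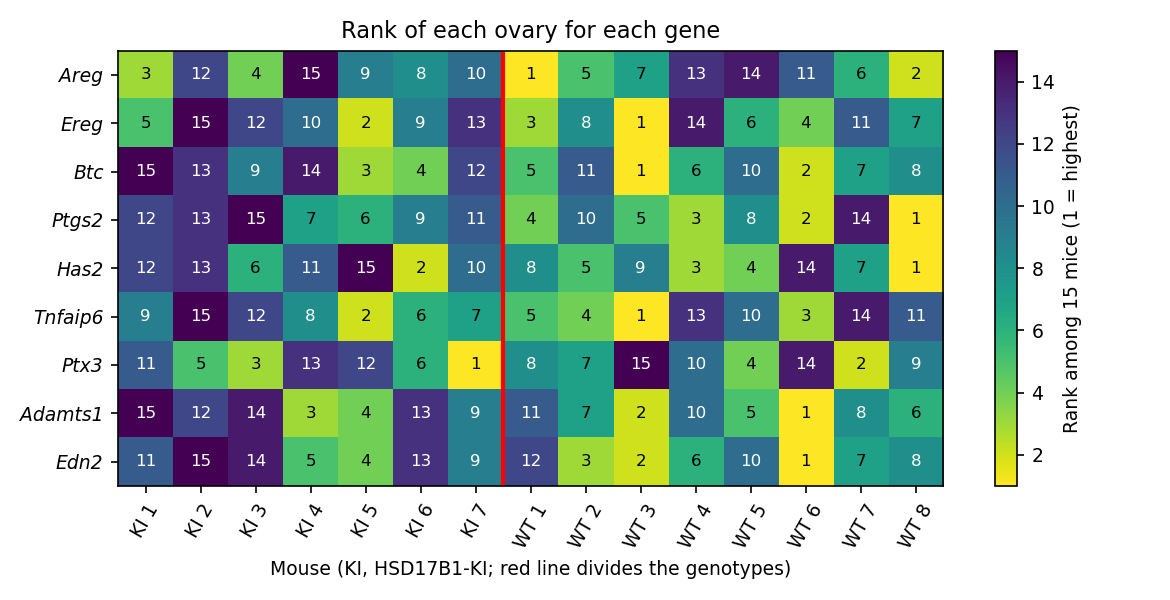
Rank of each of the 15 ovaries (columns) for each of the 9 genes (rows), with 1 for the highest level and a red line between HSD17B1-KI and WT. HSD17B1-KI 4 and 5 and WT 3 and 6 hold ranks 1 to 4 for Adamts1, whereas WT 1, WT 8 and HSD17B1-KI 1 hold ranks 1 to 3 for Areg.

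Few pairs of the 9 genes were related over the mice in which they were compared. Because Adamts1, Edn2 and Areg fell into separate ranges, pairs with these genes were computed in the lower 11, 10 and 12 ovaries only, and pairs among them in the ovaries that both had there. The ovaries highest for these 3 genes were thus left out, so that these pairs cannot show whether genes were high together in them. Over 36 pairs and 100000 permutations, 0 had a Benjamini-Hochberg adjusted permutation p under 0.05 by Pearson, and 6 had an unadjusted one. By Spearman, 1 pair, Ereg and Tnfaip6, had an adjusted p under 0.05. Ereg and Tnfaip6 had Pearson r = 0.73 (permutation p = 0.00233, adjusted 0.0839) and Spearman rho = 0.77 (permutation p = 0.00114, adjusted 0.0410) over 15 mice, and r = 0.59 without the 2 mice farthest from the median of Ereg. Ptx3 was negatively related to Tnfaip6 (r = -0.62, rho = -0.56), Ereg (r = -0.61, rho = -0.62) and Ptgs2 (r = -0.61, rho = -0.66), with adjusted permutation p-values of 0.133 by Pearson and of 0.242, 0.189 and 0.148 by Spearman. Without the 2 farthest mice these r were -0.49, -0.50 and -0.67.

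Other genes that LH is known to induce or to lower were read in the same ovaries. Of 21 LH-induced genes outside the 9, 0 passed the limma test between genotypes, while DESeq2 called 2, Cebpa, a transcription factor of granulosa cells, and Sult1e1, estrogen sulfotransferase, where it called 2.30% of all genes. Their log2 fold changes were 0.75 ± 0.16 and 2.24 ± 0.59, with limma adjusted p-values of 0.0748 and 0.142, and they were named because DESeq2 called them. Sult1e1 was low, with a mean of 6.32 normalized counts over all mice, so that its fold change rests on few reads. It ranged from 0 to 4.997 in WT and from 1.08 to 45.3 in HSD17B1-KI, with HSD17B1-KI 1 highest. HSD17B1-KI 2 and 7, at 2.07 and 1.08, lay inside the WT range, and the other HSD17B1-KI mice lay above every WT mouse. Lhcgr, the LH receptor, had 0.85 ± 0.40 and Fosl2, an AP-1 factor, had -0.18 ± 0.18, the highest means in the list. The largest differences, among genes averaging 10 or more, were in Prkg2, a cyclic GMP-dependent kinase (-1.08 ± 0.51), and in Runx2, a transcription factor (-1.05 ± 0.78).

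The 4 ovaries highest for Adamts1 were also the 4 highest for 4 of 19 LH-induced genes with a mean of at least 10, Runx1, Prkg2, Cited2 and Il6, and the 4 lowest for 1, Pparg, a nuclear receptor. This pattern was chosen after the values were seen, and 904 of 18047 genes with a mean of at least 10, 5.01%, shared it. Runx1, a transcription factor of the periovulatory follicle, was at 8447 and 7223 normalized counts in HSD17B1-KI 4 and 5 and at 10384 and 9579 in WT 3 and 6, and the next ovary, WT 5, had 3535. Prkg2 was at 211, 238, 425 and 460 in the same order, and the next, WT 1, had 149. Il6, the gene of an interleukin of cumulus cells, lay close to the other mice, with the fourth ovary 1.11-fold above the fifth. The genes most like Adamts1 over 15 mice were Dlk1, a membrane ligand of the Notch family (r = 0.97), and Lox, a crosslinker of collagen (r = 0.96), and those most like Edn2 were Crtap, a collagen-modifying protein (r = 0.93), and Ywhah, a 14-3-3 protein (r = 0.92).

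The same 4 ovaries were the 4 lowest for 5 of 11 granulosa genes that fall after the LH surge, Inha, Inhba, Foxo1, Gja1 and Npr2, where 537 of 18047 genes, 2.98%, shared this pattern. Not all of the list was low in them, and for Cyp19a1, Fshr, Nppc, Inhbb, Ccnd2 and Hsd17b1 the 4 lowest ovaries were not these 4. Ccnd2 was at ranks 6 and 4 from the highest in HSD17B1-KI 4 and 5 and at ranks 8 and 1 in WT 3 and 6. Hsd17b1 was at ranks 15, 7, 9 and 13 in this order of ovaries, and Nppc at ranks 14, 8, 13 and 15. Inha, the inhibin alpha subunit, was at 46850 and 60162 normalized counts in HSD17B1-KI 4 and 5 and at 50696 and 55946 in WT 3 and 6, and the next, WT 2, had 64165. Gja1, the gap junction protein connexin 43, was at 41495, 43475, 38830 and 40788, and the next, WT 1, had 50733. Cyp17a1, the enzyme of androgen synthesis in theca cells, was at 224 and 254 in HSD17B1-KI 4 and 5 and at 107 and 141 in WT 3 and 6, and the next, WT 2, had 2033. Cyp17a1 is outside the 11 genes and was the only 1 of 5 theca markers lowest in these 4 ovaries. In the same order of ovaries, Cyp11a1 was at ranks 1, 2, 5 and 9 from the highest and Hsd3b1 at ranks 1, 2, 3 and 11. Insl3 was at ranks 10, 7, 9 and 14, and Aldh1a1 at ranks 2, 7, 12 and 13. Between genotypes 0 of the 11 genes passed the test, and the largest differences were in Cyp19a1, aromatase (0.74 ± 0.65), and Nppc, the natriuretic peptide that holds the oocyte in arrest (0.53 ± 0.38), while Inha had 0.47 ± 0.28 and Gja1 0.27 ± 0.31.

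**Figure D5:**
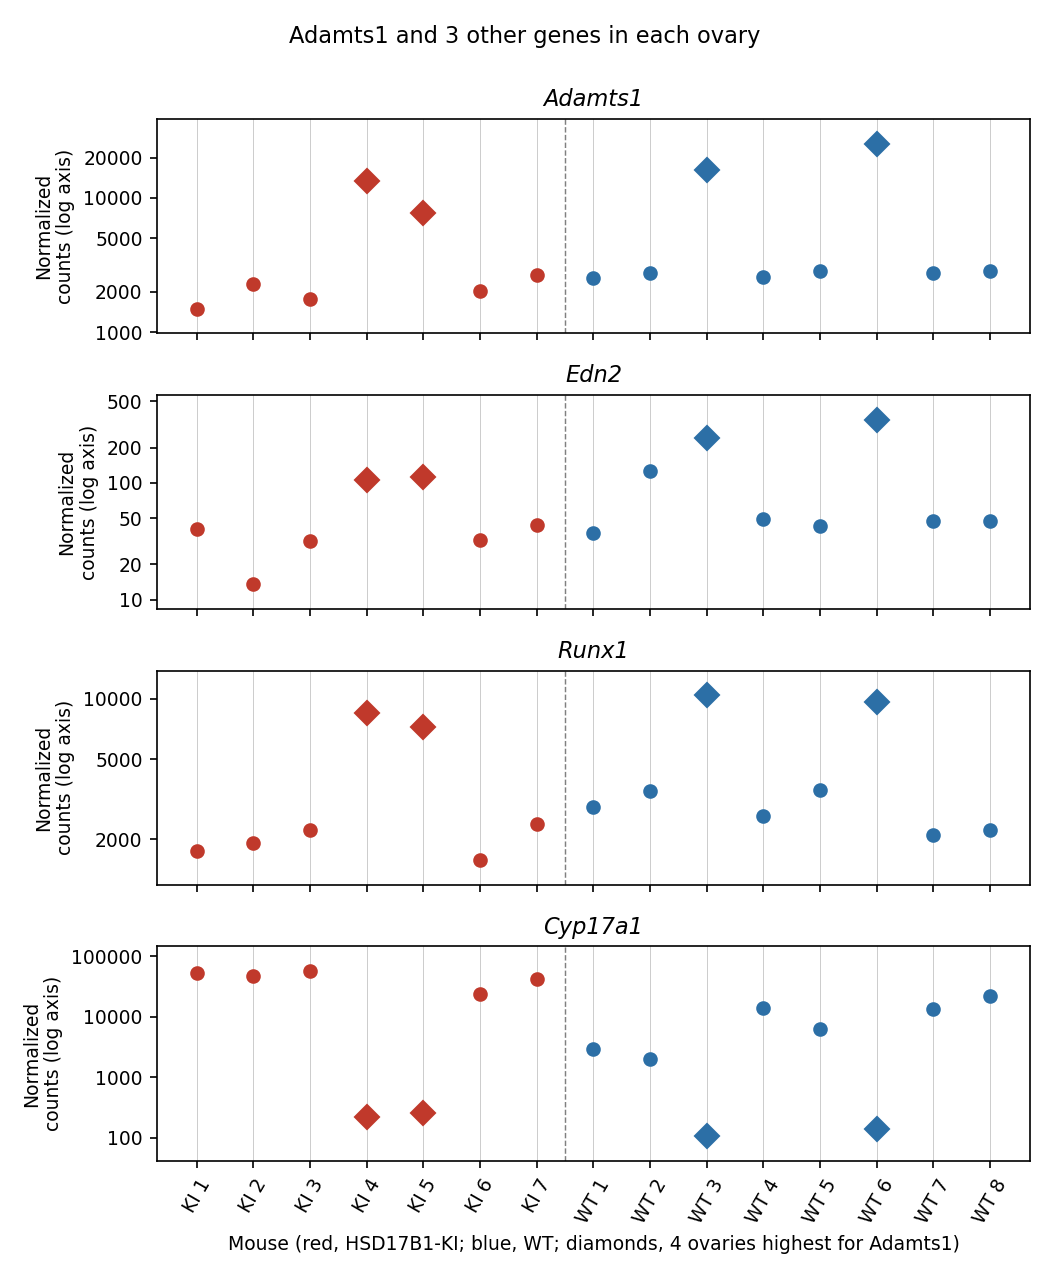
Normalized counts of Adamts1, Edn2, Runx1 and Cyp17a1 in each of the 15 mice on log axes, in red for HSD17B1-KI and blue for WT, with diamonds for the 4 ovaries highest for Adamts1. These ovaries are also the 4 highest for Runx1 and the 4 lowest for Cyp17a1, with Cyp17a1 between 107 and 254 normalized counts against at least 2033 in the other mice. Cyp17a1 was the only 1 of 5 theca markers lowest in these ovaries.

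Other LH-induced genes named other ovaries. Runx2 was highest in WT 2 with 15149 normalized counts, WT 5 with 11381 and WT 1 with 8839, ahead of WT 3 with 5785 and WT 6 with 5567. Pgr, the progesterone receptor, was highest in WT 8 with 1653 and WT 1 with 845, the libraries with the most Ovgp1, and it was lowest in WT 3 with 52.8 and WT 6 with 57.5. Pgr is also expressed in oviduct, and the part of oviduct tissue in these values was not tested.

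Some markers of the stroma were highest in the 4 ovaries as well. Of 4 stromal markers, 3 (Lum, Pdgfra and Col1a1) were highest in the same 4 ovaries. Col1a1 had 25791 and 33319 normalized counts in HSD17B1-KI 4 and 5 and 29470 and 32596 in WT 3 and 6, against 18415 in the next mouse. The fourth ovary lay only 1.10-fold above the fifth for Lum and 1.01-fold for Pdgfra. Dcn, the other marker, was at ranks 5 and 2 in HSD17B1-KI 4 and 5 and at ranks 14 and 6 in WT 3 and 6. Summed stromal markers ranged from 36510 to 95257 in HSD17B1-KI and from 45042 to 77812 in WT. The oviduct score lay between -2.87 and -1.10 in these ovaries, over a range from -3.03 to 4.12 in all, and the log2 level of Adamts1 fell by 0.34 ± 0.10 per unit of that score (limma adjusted p = 0.0451), while for Edn2 it was -0.24 ± 0.11 (adjusted p = 0.200). The part of stroma or oviduct in the levels of Adamts1 and Edn2 was not tested. With the oviduct score in the model, the genotype differences were -0.79 ± 0.47 for Adamts1 and -1.09 ± 0.49 for Edn2, with adjusted p-values of 0.574 and 0.445.

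The 4 ovaries were also counted over the lists. Among 11 genes that fall after the LH surge, HSD17B1-KI 4 was among the 3 lowest ovaries for 9, WT 6 for 7, WT 3 for 6 and HSD17B1-KI 5 for 4. WT 1 followed with 3, WT 8 with 2 and HSD17B1-KI 2 and WT 2 with 1 each, and the other 7 ovaries had 0. Among 21 LH-induced genes, WT 6 was among the 3 highest for 9 and HSD17B1-KI 5 for 6, WT 3, WT 2, WT 8 and HSD17B1-KI 6 for 5, and HSD17B1-KI 4 for 4, as many as HSD17B1-KI 1, HSD17B1-KI 7 and WT 7. Ovaries with these values occurred in both genotypes, 2 of 7 HSD17B1-KI and 2 of 8 WT. Of the list of 9, the early-response genes Areg, Ereg, Ptgs2 and Has2 were not jointly high in these ovaries, with HSD17B1-KI 4 at ranks 15, 10, 7 and 11, HSD17B1-KI 5 at ranks 9, 2, 6 and 15, WT 3 at ranks 7, 1, 5 and 9 and WT 6 at ranks 11, 4, 2 and 14. In the same order of ovaries, Btc was at ranks 14, 3, 1 and 2 and Tnfaip6 at ranks 8, 2, 1 and 3. Ptx3 was lowest in exactly these 4 ovaries, at ranks 12 to 15.

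Genes by which the oocyte signals to cumulus cells were the last list. Of 7 tested, 0 passed, and the median log2 fold change was 0.09. The receptors Bmpr2 and Tgfbr1 had the highest means, with log2 fold changes of 0.10 ± 0.23 and -0.28 ± 0.14, and Bmpr1b, a receptor for oocyte growth factors, had -0.19 ± 0.38. Bmpr1b was lowest in the 4 ovaries highest for Adamts1, at or below 2084 normalized counts against at least 3953 elsewhere. Over all 7 lists, 0 of 86 genes tested passed the limma test, against 0.214% of all genes, and 4 passed with DESeq2, against 2.30%.

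The remaining genes by likeness were named by the same rule. They were Nfe2l2 (r = 0.90) and Cib1 (r = 0.89) for Ereg, Ociad2 (r = 0.81) and Cntln (r = 0.80) for Btc, Caln1 (r = 0.92) and 5033430I15Rik (r = 0.88) for Has2, Nmnat3 (r = 0.93) and Akirin1 (r = 0.92) for Tnfaip6, and Ctnna2 (r = 0.95) and Galc (r = 0.92) for Ptx3. Each r is over the same 15 libraries and is given as a description.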

How the data were processed

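Ovarian RNA of 7 HSD17B1-KI and 8 WT mice was sequenced with a TruSeq Stranded mRNA kit, 1 library per mouse. After trimming, the authors aligned reads to mm10 (STAR 2.7.3) and counted them per gene. The deposited table holds the signal of 27907 genes after division by size factors. The counting program, annotation release and strand setting are not given in the sources used here. Division by the smallest step of each library gave whole reads for 100% of values, within 0.01 reads.

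Genes whose mean reached 2 normalized counts were tested with limma 3.58.1 (limma-trend on log2(value + 1), genotype as the only term, Benjamini-Hochberg, threshold 0.05, two-sided), so that fold changes of low genes are understated. edgeR 4.0.16 (quasi-likelihood, TMM) and DESeq2 1.42.0 on the recovered reads were alternatives. Also tried were pseudocounts of 0.1 and 10, no filter, a minimum mean of 10, upper quartile and quantile scaling, array weights, an oviduct marker covariate, a replicate block and leaving out each mouse. The scripts were tested on simulated data. For each of the 9 genes an exact permutation test was also run.

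The 9 genes and the 7 pathway and 13 marker lists were chosen with earlier results of these data known. Named were the 9 genes, in each pathway list the genes past the threshold, the 2 of highest mean and the 2 of largest difference with a mean of at least 10, for each of the 9 genes the 2 most similar genes, and marker genes where a result turned on them. Correlations planned over 15 mice were limited to the lower ovaries for Adamts1, Edn2 and Areg, since their values fell into separate ranges. Marker lists other than those of the results were for luteal cells, macrophages, neutrophils, endothelium, smooth muscle, surface epithelium, adipose tissue and erythroid cells, and 0 genes of these lists passed the test. Positions came from GENCODE release M21.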

Additional observations from a re-analysis of the deposited data

Results flagged for a closer look

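Of 108 sets of values (54 named genes, each in 2 genotypes), 2 held a mouse whose log2 value lay far from the others of its group relative to the range of the group, and chance alone gives such a gap in about 1 in 20 groups. Edn1 was at 299 normalized counts in HSD17B1-KI 7, against 165 in the next HSD17B1-KI mouse. Atp1b1, the gene most like Ptgs2, was at 4210 in HSD17B1-KI 5, against 2999 in the next.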

How the results depend on the processing

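For the 9 genes, 250 of 252 fits under other settings kept the direction and stayed past no threshold. The other 2 were Areg without WT 1 and WT 8, an alternative chosen after seeing the data, with a log2 fold change of 0.32 by limma and 0.83 by DESeq2. The exact permutation p of Ptgs2 moved from 0.0555 to 0.0368 when means of normalized counts replaced log2 values. All 36 correlations stayed above an adjusted permutation p of 0.05 by Pearson with the genotype mean subtracted, a pseudocount of 10 or without the 2 farthest mice. By Spearman in the main setting, Ereg and Tnfaip6 were under it, with an adjusted permutation p of 0.0410. The number of all genes past the threshold, 46, became 28 with no filter, 28 with quantile normalization, 125 with array weights, 456 with DESeq2, 9 without WT 1 and WT 8 and 244 with DESeq2 without them, and it ranged from 6 to 139 when single mice were left out, with 6 without HSD17B1-KI 2 and 139 without HSD17B1-KI 5. The number of pathway genes past it, 0, became 1 with array weights, 4 with DESeq2 and 2 with DESeq2 without WT 1 and WT 8, and ranged from 0 to 1 without single mice. Genes near 0 changed sign. Adam17 ranged from -0.051 to 0.033, Ece1 from -0.061 to 0.048 and Bmpr2 from -0.0030 to 0.19 without single mice, and Ece1 was -0.026 with quantile normalization, -0.0073 with edgeR, -0.0085 with DESeq2, -0.017 with the oviduct marker covariate, -0.076 without WT 1 and WT 8 and -0.082 with DESeq2 without them. The cause was not tested. Mice of the same number in both genotypes shared only a number. Their deviations correlated by -0.55 to 0.55, and 1 of 7 correlated best with its own number. With the replicate block, 0 genes passed, 0 of the 9 genes included. Ovaries with 5 to 13 reads of Areg, Has2, Ptgs2 or Edn2 limit the low end of these genes.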
